A study of Mus musculus with 4 samples.

Results

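The genes described here are 158 mouse genes of 4 families of ubiquitin adaptors, out of 21938 protein-coding genes of GENCODE M21. They were chosen by name, as the protein-coding genes whose symbols begin with Trim, Fbxo, Klhl or Asb followed by a digit, which gave 68 TRIM, 36 FBXO, 36 KLHL and 18 ASB genes. Among them 7 genes known for their place in striated muscle (Trim54, Trim55, Trim63, Fbxo32, Klhl31, Klhl38 and Klhl40) are called the muscle members and are described in most detail. The measurement was acetylation of lysine 27 of histone H3 (H3K27ac), which marks promoters and enhancers in use, by chromatin immunoprecipitation and sequencing of heart tissue. All hearts came from female B6CASTF1/J mice aged 2 months, which are the first generation of a cross between C57BL/6J and CAST/EiJ and carry no treatment or engineered allele per the labels. The 4 libraries form 1 group. They come from 2 pools of hearts, the biological replicates, each made from 2 heart samples and sequenced as 2 technical replicates. Both pools carry the same donor identifier, and differences between them may be technical. There is no second tissue or condition, so the genes were compared with all protein-coding genes of the same peak list and no test between conditions was possible.

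Ubiquitin ligases mark proteins for destruction by the proteasome or change what they do. Most TRIM proteins carry a RING domain and act as ligases of their own, whereas FBXO, KLHL and ASB proteins are the parts of cullin-RING ligases that hold the substrate. F-box proteins attach through Skp1 to cullin 1, Kelch-like proteins attach through their BTB domain to cullin 3, and ASB proteins attach through elongins B and C to cullin 5. In heart and skeletal muscle, members of all 4 families turn over sarcomere proteins, and Trim63 (MuRF1) and Fbxo32 (atrogin-1) are the classic genes of muscle wasting.

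The labelled tissue was checked with marker genes. A promoter peak, meaning a peak within 1 kb of any annotated transcription start site (TSS) of a gene, was present at 8 of 8 heart muscle markers, 4 of 4 endothelial markers and 4 of 4 fibroblast markers. It was present at 0 of 4 macrophage, 0 of 4 neuron and 0 of 4 hepatocyte markers in the replicated peak list, and 2 of the macrophage markers had one in biological replicate 2. Among 9 skeletal muscle markers only Actn3 had a promoter peak, and Myod1, Myh1, Myh2, Myh4 and Pax7 had no peak within 50 kb of the gene. Hearts are a mixture of cells, and in bulk tissue fewer cells of a type and a weaker mark per cell cannot be told apart. Read depth is unknown.

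Most of the adaptor genes carried the mark at a promoter. In the authors' list of replicated peaks, 122 of the 158 members (77.2%) had a promoter peak, against 56.8% of all protein-coding genes. The count was 121 in the list called on biological replicate 1 alone, where 55.2% of all genes had one, and 124 in biological replicate 2, where the background was 57.9%. In the pooled list it was 121, against 57.0% of all genes. By family, a promoter peak was found at 33 of 36 KLHL genes (91.7%), 30 of 36 FBXO genes (83.3%), 15 of 18 ASB genes (83.3%) and 44 of 68 TRIM genes (64.7%). Of the 15 ASB genes 5 had it only at an internal TSS, away from the outermost GENCODE 5′ end of the gene. With the 5′ end alone counted, 10 of 18 ASB genes (55.6%) and 38 of 68 TRIM genes (55.9%) had a peak, against 53.3% of all protein-coding genes. The scaffold and regulators of the cullin-RING ligases, from cullins and Skp1a to Nedd8 and the COP9 signalosome, had a promoter peak at 34 of 34 genes. Substrate receptors with other names had one at 16 of 18 FBXL, 9 of 23 FBXW, 9 of 9 KBTBD and 8 of 8 SOCS genes. In the plot of shares, the muscle members, the cell cycle members and the cullin-RING core genes reach every gene of their lists, and the germ cell members have the lowest share of the lists drawn.

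**Figure D1:**
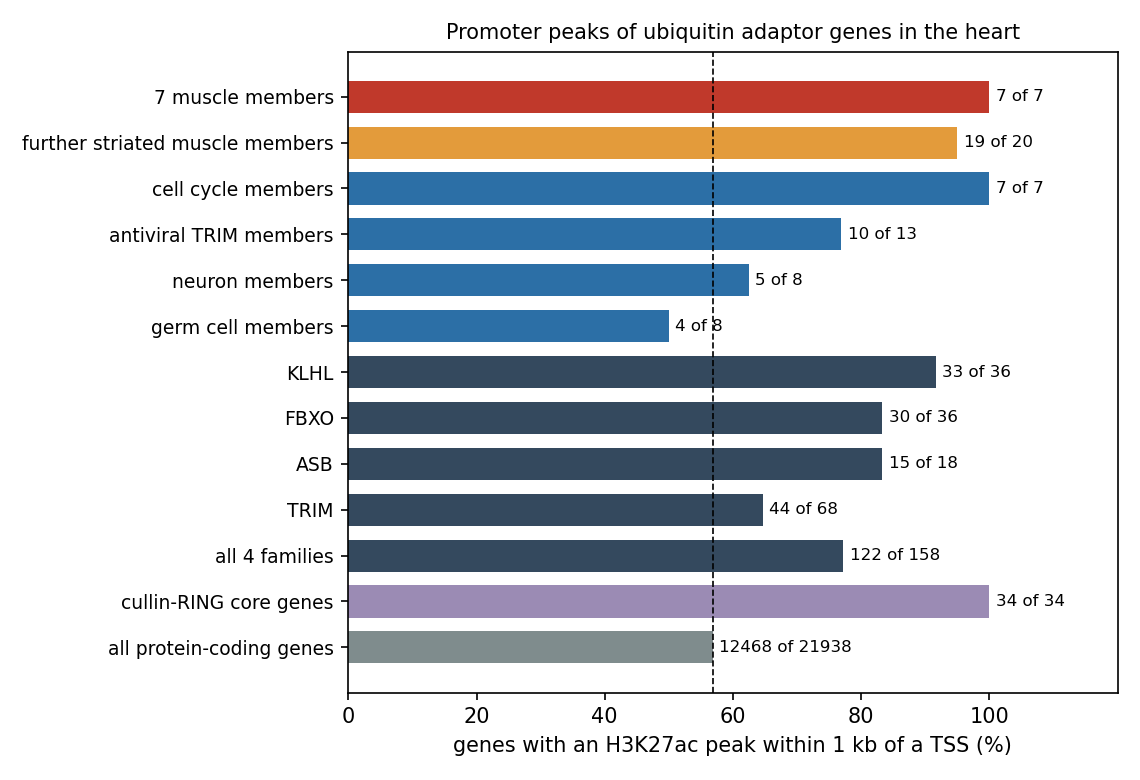
Share of genes (%, horizontal axis) with an H3K27ac promoter peak in the replicated list, by role list, by family and for reference sets, with the counts beside each bar. The dashed line marks all protein-coding genes (56.8%), and only the germ cell members, at 4 of 8, lie under it.

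All 7 muscle members had a promoter peak in the replicated list and in the lists of both single replicates. Their promoter peaks had a median width of 2.56 kb, against 1.53 kb for all members with a promoter peak and 1.44 kb for all protein-coding genes with one. Substrate receptors with other names had medians of 2.56 kb (SOCS), 1.64 kb (FBXL), 1.14 kb (FBXW) and 0.906 kb (KBTBD). Marker genes had 3.38 kb (heart muscle), 5.10 kb (endothelial) and 1.61 kb (fibroblast), so the width was not particular to the muscle members. A peak was called wide when its width was at or above the upper quartile of all protein-coding genes with a promoter peak, 2.21 kb. Such a peak was present at 6 of the 7 muscle members and 30 of the 158 members, against 14.2% of all protein-coding genes. Trim55 was the muscle member under that width. The deposited fold of their promoter peaks was closer to the rest, with a median of 13.6 for the muscle members, 12.1 for all members and 13.2 for all protein-coding genes. Acetylated length, the summed length under peaks in a gene and the 50 kb on either side of it, had a median of 8.89 kb in the muscle members and 4.60 kb in all members, against 4.32 kb in all protein-coding genes. Its median was longer in SOCS genes (12.9 kb) and heart muscle markers (23.8 kb), and shorter in FBXL (7.24 kb) and KBTBD genes (5.19 kb).

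The 3 MuRF genes encode RING ligases that sit on the sarcomere and on microtubules. Trim63 (MuRF1, ENSMUSG00000028834.13) lies at chr4:134315120-134329629 of mm10. Its promoter peak spanned chr4:134314182-134316556 and measured 2.38 kb in the replicated list, 2.28 kb in biological replicate 1 and 4.68 kb in biological replicate 2. The fold of that peak was 13.6 in the replicated list, 10.1 in replicate 1 and 17.5 in replicate 2. Trim63 was the MuRF gene with the most peaks nearby: 17 peaks covered 14.25 kb of its window in the replicated list, with 11.8 kb in replicate 1 and 18.1 kb in replicate 2. Of these 17 peaks 10 were distal, meaning over 2.5 kb from any TSS, and 14 were found in both single replicates. A row of 4 intergenic peaks lay between 7.75 and 15.28 kb before the gene, and the strongest of them was 1.56 kb wide with a fold of 14.8, above that of the promoter peak. The nearest coding TSS of that strongest peak was that of Pdik1l, not of Trim63, and peaks nearest to the Trim63 TSS made up 37.4% of its acetylated length.

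Trim54 (MuRF3, ENSMUSG00000062077.14, chr5:31116712-31137630) had a promoter peak at chr5:31116163-31118727. The width was 2.56 kb in the replicated list, 2.11 kb in replicate 1 and 3.43 kb in replicate 2. Its fold of 18.3, with 13.3 in replicate 1 and 24.8 in replicate 2, was second to Fbxo32 among the muscle members. Little else in the Trim54 window was far from a start site. Of 5 peaks 1 was distal, and the other large ones lay at the promoters of Mpv17 and Gtf3c2. Trim55 (MuRF2, ENSMUSG00000060913.6, chr3:19644474-19692421) had a promoter peak at chr3:19643745-19645769, of 2.02 kb in the replicated list, 1.80 kb in replicate 1 and 2.27 kb in replicate 2. The fold of 12.0, with 10.03 in replicate 1 and 16.4 in replicate 2, was the lowest of the 7 in the replicated list. Inside the gene a weaker peak of 2.10 kb with a fold of 5.12 stood in an intron 18.7 kb past the 5′ end.

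Fbxo32 (atrogin-1, ENSMUSG00000022358.7, chr15:58175879-58214932, minus strand) encodes the F-box protein of muscle atrophy and had the most acetylation of the muscle members. Its promoter peak at chr15:58210959-58216042 was 5.08 kb wide in the replicated list, 5.04 kb in replicate 1 and 6.60 kb in replicate 2, which put it at percentile 95.8 of width among all protein-coding genes with a promoter peak. The summit of the peak lay in an intron of Gm15943, which also has a TSS within 1 kb of the peak. The fold was 28.4 in the replicated list, 25.4 in replicate 1 and 24.4 in replicate 2. It was the 1 muscle member whose fold was not higher in replicate 2. The acetylated length was 25.6 kb in the replicated list, 20.2 kb in replicate 1 and 29.8 kb in replicate 2. In the replicated list it came from 20 peaks, of which 12 were found in both single replicates and 17 were distal. Most of those lay in introns of Fbxo32 itself, and peaks nearest to its own TSS held 83.6% of the length. The strongest intronic peak stood 11.1 kb past the 5′ end with a fold of 14.7, and the widest one, at 19.8 kb, measured 3.12 kb with a fold of 9.10.

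Klhl38 (ENSMUSG00000022357.2, chr15:58314573-58324169, minus strand), a Kelch-like gene of striated muscle, is a neighbour of Fbxo32. Their 5′ ends are 109.2 kb apart, and 6 peaks lay wholly between them, not all of them found in both single replicates. Of the 7 peaks in the Klhl38 window 4 were found in both. The Klhl38 promoter peak at chr15:58321930-58326002 was 4.07 kb wide in the replicated list, 3.98 kb in replicate 1 and 4.27 kb in replicate 2. Its fold was 13.0 in the replicated list, 11.1 in replicate 1 and 16.0 in replicate 2. Acetylated length was 11.8 kb in the replicated list, 10.3 kb in replicate 1 and 14.2 kb in replicate 2, and peaks nearest to Klhl38 held 97.2% of it.

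Klhl31 (ENSMUSG00000044938.8, chr9:77636500-77660127), which is needed for normal skeletal muscle in mice, stands alone. No other protein-coding TSS lay in its window, so all of its 6.66 kb of acetylated length was nearest to it. That length was 6.04 kb in replicate 1 and 8.55 kb in replicate 2. The promoter peak at chr9:77635575-77638317 was 2.74 kb wide, with 2.72 kb in replicate 1 and 3.02 kb in replicate 2, and had a fold of 14.1, with 11.03 in replicate 1 and 18.1 in replicate 2. The remaining 4 peaks were distal and lay before the gene. The strongest, 7.37 kb before the 5′ end, was 1.65 kb wide with a fold of 10.4, and another 20.6 kb before it had a fold of 8.61. Klhl40 (ENSMUSG00000074001.3, chr9:121777607-121783818), whose protein stabilizes thin-filament proteins and whose loss in humans causes nemaline myopathy, differed in where its peak lay. The peak at chr9:121775591-121778039 was 2.45 kb wide, with 2.43 kb in replicate 1 and 2.67 kb in replicate 2, and its summit stood 1.18 kb before the 5′ end. That summit lay in an exon of Gm47108, which also has a TSS within 1 kb of the peak. The peak can thus not be given to Klhl40 alone. The fold of the peak was 12.1 in the replicated list, 10.1 in replicate 1 and 15.7 in replicate 2. In the Klhl40 window 31.6% of the acetylated length was nearest to Klhl40, and the strongest peak there, with a fold of 19.2, lay at the promoter of Hhatl.

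**Figure D2:**
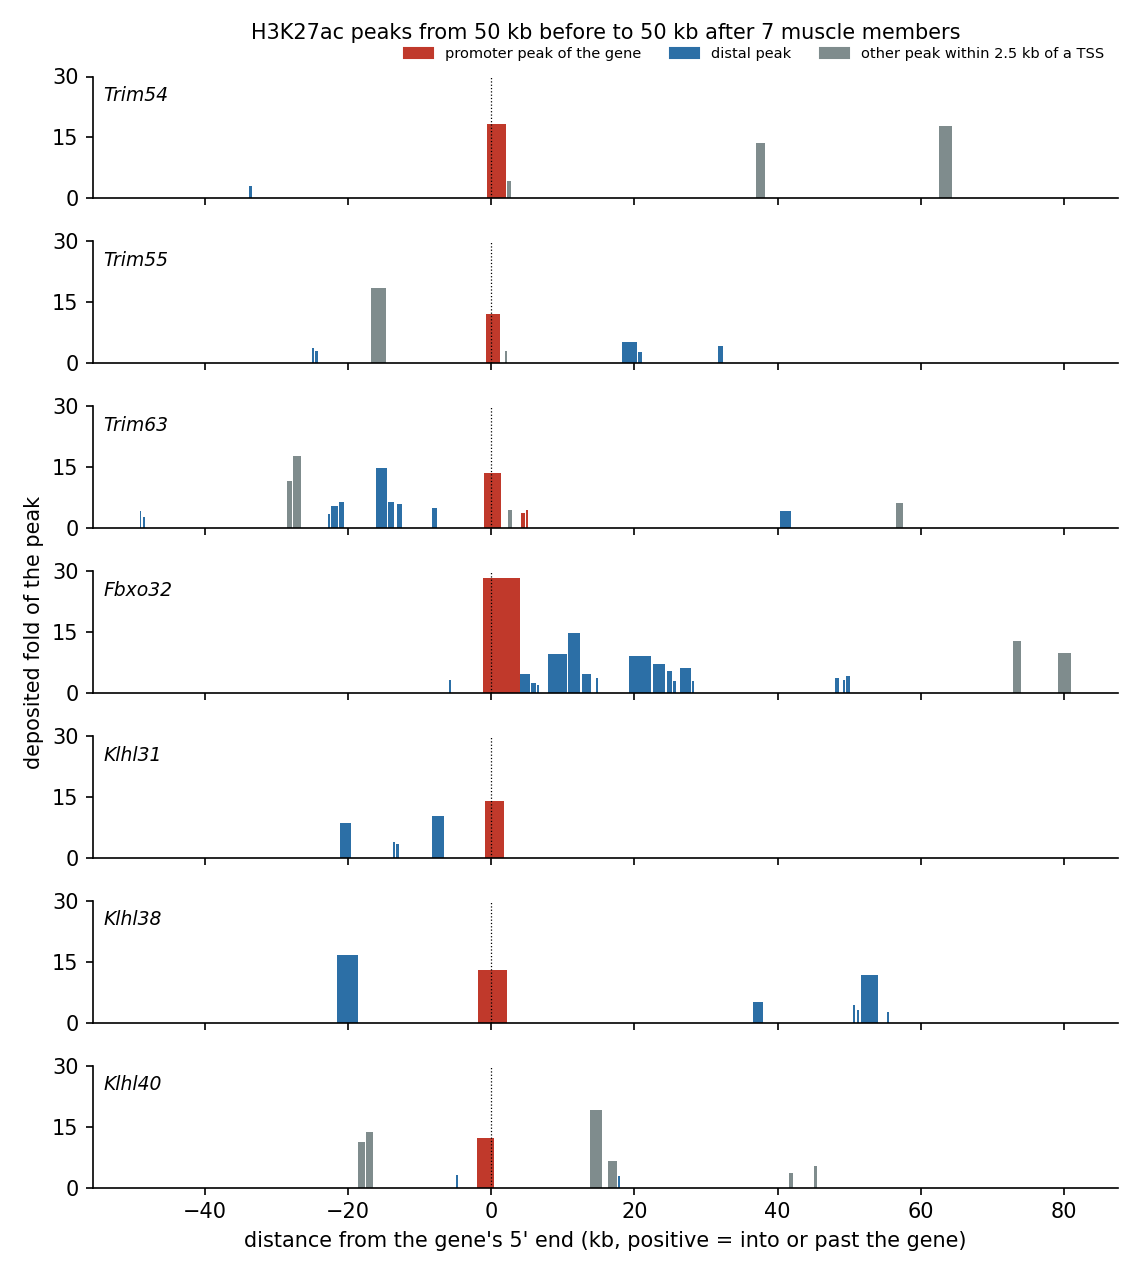
Peaks of the replicated list around the 7 muscle members, drawn by distance from each 5′ end (kb, oriented with transcription), with the deposited fold as height and the peak width to scale. Fbxo32 has the tallest promoter peak (fold 28.4) and a run of distal peaks inside the gene, Klhl31 and Klhl38 have distal peaks apart from any other coding promoter, and the tall peaks around Trim54 and Klhl40 other than their own promoter peaks lie near the TSS of another gene.

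In 6 of the 7 muscle members the promoter peak reached further into the gene than before it. The median reach was 1.82 kb past the 5′ end and 0.938 kb before it. The same lean was present at 63 of the 82 members whose widest promoter peak spanned the 5′ end, with medians of 1.07 kb past it and 0.642 kb before it. The share over all protein-coding genes was not computed, so the lean cannot be called particular to these genes. Klhl40 was the exception among the muscle members, with 0.432 kb past the 5′ end and 2.02 kb before it. All 7 muscle members had a wider promoter peak and a longer acetylated length in replicate 2 than in replicate 1.

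The promoter sequences of 4 muscle members are given because their peaks cover them. They are the RefSeq windows of 250 bases before to 50 bases after the start on GRCm38.p6, the assembly of mm10, all on the plus strand. Capitals mark matches, on either strand, to 7 consensus sequences that were searched: the FOXO site GTAAACA, the muscle E-box CAGCTG, the TEAD site GGAATG, the GATA site AGATAA, the ERR site AAGGTCA, the MEF2 box and the CArG box. No 2 matches in these windows overlap. RefSeq windows of Trim55, Fbxo32 and Klhl38 are not analysed here, and the CpG content of their 5′ ends, read from the genome, is given below.
Trim54, chr5:31116362-31116661: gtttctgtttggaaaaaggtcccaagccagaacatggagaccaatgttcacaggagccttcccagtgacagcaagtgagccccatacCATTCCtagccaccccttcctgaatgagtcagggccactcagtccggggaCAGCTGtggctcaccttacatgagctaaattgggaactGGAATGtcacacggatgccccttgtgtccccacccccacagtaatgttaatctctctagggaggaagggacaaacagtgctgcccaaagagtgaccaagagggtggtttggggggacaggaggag
Trim63, chr4:134314870-134315169: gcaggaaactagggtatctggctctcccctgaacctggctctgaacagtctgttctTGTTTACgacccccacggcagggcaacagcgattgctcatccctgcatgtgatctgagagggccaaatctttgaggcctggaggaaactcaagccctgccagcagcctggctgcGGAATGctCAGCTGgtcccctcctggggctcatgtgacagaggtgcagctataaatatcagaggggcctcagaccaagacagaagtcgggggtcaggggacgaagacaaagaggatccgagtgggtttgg
Klhl31, chr9:77636482-77636781: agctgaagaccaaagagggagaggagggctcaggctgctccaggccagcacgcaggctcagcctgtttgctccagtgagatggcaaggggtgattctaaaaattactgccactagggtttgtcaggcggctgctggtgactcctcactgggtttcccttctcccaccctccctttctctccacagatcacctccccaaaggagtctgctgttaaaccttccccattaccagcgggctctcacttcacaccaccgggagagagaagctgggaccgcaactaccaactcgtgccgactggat
Klhl40, chr9:121777357-121777656: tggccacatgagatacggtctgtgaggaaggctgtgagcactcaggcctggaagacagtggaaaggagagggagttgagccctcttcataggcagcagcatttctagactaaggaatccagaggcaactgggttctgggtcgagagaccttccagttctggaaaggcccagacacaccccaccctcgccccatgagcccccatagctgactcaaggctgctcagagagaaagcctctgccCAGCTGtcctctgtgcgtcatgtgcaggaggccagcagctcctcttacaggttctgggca
The Trim63 promoter held TGTTTAC, the reverse complement of the FOXO letters, 194 bases before the start, with GGAATG and CAGCTG 80 and 72 bases before it. The Trim54 promoter held CAGCTG 113 bases before the start, with the TEAD letters on the minus strand 163 bases and on the plus strand 75 bases before it. Klhl40 had CAGCTG 10 bases before the start, and Klhl31 had none of the 7 consensus sequences in its window. Among 16533 protein-coding genes with a RefSeq window of the same length, 2.96% held the FOXO letters, 15.2% the E-box and 13.2% the TEAD letters. Since 126 of the 158 members had such a window, under 80%, a comparison over all members is void.

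The 201 bases around the summits of 2 distal peaks are given as well, the strongest distal peaks of Fbxo32 and Klhl31, since most of the acetylated length of these genes was nearest to their own TSS. They were read from the GRCm38.p6 genome on the plus strand, and capitals mark the same matches.
Fbxo32 distal peak, chr15:58203692-58203892: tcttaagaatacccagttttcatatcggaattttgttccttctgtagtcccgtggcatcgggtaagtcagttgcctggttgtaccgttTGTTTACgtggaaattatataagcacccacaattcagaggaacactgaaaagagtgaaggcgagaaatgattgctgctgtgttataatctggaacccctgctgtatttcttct
Klhl31 distal peak, chr9:77629028-77629228: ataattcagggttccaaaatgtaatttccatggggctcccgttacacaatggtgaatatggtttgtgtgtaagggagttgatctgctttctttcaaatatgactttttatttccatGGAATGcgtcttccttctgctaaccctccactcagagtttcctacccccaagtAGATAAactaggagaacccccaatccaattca
The Fbxo32 intronic peak held TGTTTAC just before its summit, and the Klhl31 peak held GGAATG and AGATAA. Of 37273 distal peaks of the replicated list, 3.24% held the FOXO letters within 100 bases of the summit, 11.7% the TEAD letters and 10.4% the GATA letters. A match describes letters and does not show that a factor binds.

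A further 20 members known from striated muscle were listed apart from the 7. Of these 19 had a promoter peak, against 56.8% of all protein-coding genes, and Asb16 had none in the replicated list. Their promoter peaks had a median width of 1.95 kb, against 1.44 kb in all protein-coding genes, and 9 of the 20 were wide, against 14.2% of all protein-coding genes. Their median acetylated length was 6.56 kb.

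Among these, 4 had promoter peaks over 4 kb wide. Fbxo40, whose protein turns over the insulin receptor substrate IRS1 in muscle, had a peak of 4.98 kb with 4.59 kb in replicate 1 and 5.01 kb in replicate 2. Asb2, whose muscle form targets filamin, had a peak of 4.79 kb with 3.03 kb in replicate 1 and 7.34 kb in replicate 2, and 97.2% of its 21.0 kb of acetylated length was nearest to its own TSS. Asb11 measured 4.50 kb with 1.39 kb in replicate 1 and 5.40 kb in replicate 2, so its width rests on replicate 2. Klhl41, a relative of Klhl40 that is also linked to nemaline myopathy in humans, measured 4.24 kb with 4.24 kb in replicate 1 and 4.19 kb in replicate 2, and its fold was 10.1.

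Fbxo30 (MUSA1), an F-box protein of muscle wasting, had a fold of 35.1 over 2.93 kb, with a fold of 29.3 in replicate 1 and 41.6 in replicate 2. Trim72 (MG53), which reseals damaged muscle membranes, had a peak of 2.22 kb with a fold of 15.6. Klhl33 and Asb10, muscle genes of less well-known function, had peaks of 2.68 and 2.57 kb with folds of 15.1 and 14.2. Trim32, a ligase mutated in a human limb-girdle dystrophy, had its promoter peak of 1.10 kb as the only peak in its window. Fbxo21 and Fbxo25 had narrow promoter peaks of 0.673 and 0.891 kb with folds of 9.86 and 7.38. Asb14, Klhl30 and Asb18 had peaks of 1.95, 1.78 and 1.16 kb. Klhl34 on the X chromosome had the lowest fold of the 19, 4.27 over 0.548 kb. In all, 6 of the 7 members on the X chromosome had a promoter peak, against 353 of 948 protein-coding genes there.

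Asb15 had the longest acetylated window of all 158 members, 42.9 kb in the replicated list, 38.5 kb in replicate 1 and 47.3 kb in replicate 2. Ndufa5 starts within 1 kb of an Asb15 TSS, and 41.8% of that length was nearest to Asb15 itself. Asb5 shares its start region with Spcs3 in the same way and had a fold of 21.4 over 1.61 kb. The RefSeq start of Asb5 lay 20751 bp inside the GENCODE 5′ end and had no peak within 1 kb. Asb16 lacked a promoter peak, and of the 18.3 kb of acetylated length in its window 1.43% was nearest to Asb16. The 4 ASB genes with the most acetylated length and a promoter peak were Asb15, Asb2, Asb8 (20.7 kb) and Asb5 (12.2 kb).

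**Figure D3:**
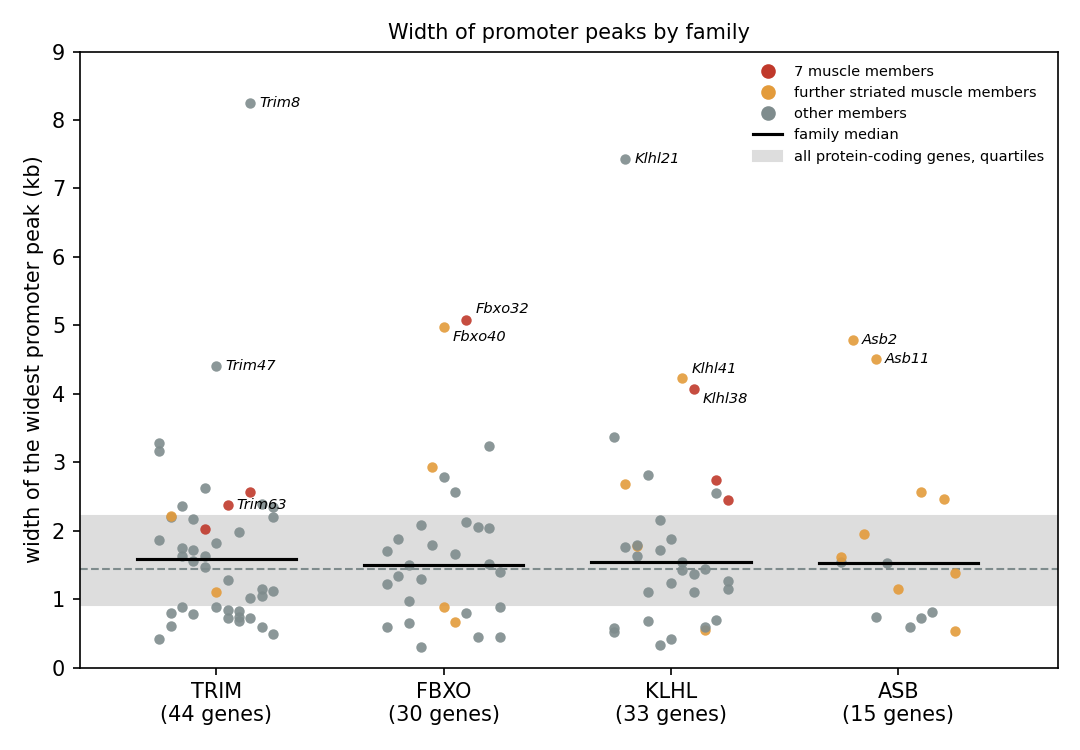
Width of the widest promoter peak (kb) of each member that has one in the replicated list, by family, with family medians as black lines and the quartiles of all protein-coding genes as a grey band with a dashed median of 1.44 kb. Of the 7 muscle members 6 lie above the band and Trim55 lies inside it, several further striated muscle members lie above it, and Trim8 (8.25 kb) and Klhl21 (7.42 kb) are the widest of their families.

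The widest promoter peaks of the families did not all belong to muscle genes. Trim8, a RING protein of cytokine and NF-kappaB signalling, had the widest promoter peak of all members. Its peak measured 8.25 kb in the replicated list, 5.67 kb in replicate 1 and 8.32 kb in replicate 2, with a fold of 26.0, and its window held 37.7 kb of peaks. Trim47 followed among the TRIM genes with 4.40 kb, then Trim11 with 3.28 kb and Trim25 with 3.16 kb. Trim47 and Trim65 are neighbours on chromosome 11 and shared a window with 22.6 kb of peaks. Klhl21, a Cullin 3 adaptor of mitotic Aurora B, had a peak of 7.42 kb, with 5.16 kb in replicate 1 and 7.70 kb in replicate 2. It reached 5.75 kb into the gene. Klhl24, whose human mutations cause skin fragility and cardiomyopathy, had the highest fold of any member's promoter peak. That fold was 43.1 in the replicated list, 28.7 in replicate 1 and 50.5 in replicate 2, over a width of 3.38 kb. Next in fold came Trim41 at 35.6.

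Long acetylated windows could belong to neighbours. Fbxo47 and Klhl10, both known from germ cells, had 24.9 and 18.5 kb of acetylated length. Of that length 21.8% was nearest to Fbxo47 and 0% to Klhl10, whose narrow peak of 0.516 kb lay where Nt5c3b also starts. Fbxo24 had a peak of 3.23 kb, with 1.54 kb in replicate 1 and 3.35 kb in replicate 2, where Lrch4 starts as well. Fbxo46 had 18.3 kb of acetylated length, of which 14.0% was nearest to it. The share was 47.4% of 12.8 kb for Klhl3 and 87.7% of 12.0 kb for Klhl5, so the windows differed in this. In all, 26 members had another protein-coding gene starting within 1 kb of one of their TSSs, against 14.6% of all protein-coding genes, and a shared peak cannot be given to one of the genes. Without these 26, 98 of 132 members (74.2%) had a promoter peak. The share of all protein-coding genes without such a neighbour was not computed.

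Of all protein-coding genes 56.8% had a promoter peak, and the lists of members with roles in most cell types were short. Promoter peaks were present at 7 of 7 cell cycle members and 3 of 4 TIF1 cofactors of chromatin. At F-box members that bind glycoproteins the count was 3 of 5, near the share of all genes. Among the cell cycle members, Fbxo5, the inhibitor of the anaphase-promoting complex, had a fold of 17.3, and Fbxo4, a receptor for cyclin D1, 20.8. Klhl9, which works with Klhl13 and Klhl21 on Aurora B, had a fold of 28.6 at a start shared with Gm26566. Both adaptors of WNK kinases were marked, Klhl2 with a peak of 0.693 kb and Klhl3 with 1.54 kb. Fbxo7, a partner of parkin in mitophagy, and Trim37, a ligase of peroxisomes, had peaks of 0.975 and 0.737 kb. Among the TIF1 cofactors of chromatin, Trim24 had a peak of 1.62 kb, Trim33 one of 2.20 kb, and Trim66 none. Trim28 (KAP1), the partner of KRAB zinc finger proteins, had a peak of 2.20 kb with a fold of 24.7. That peak lay at its RefSeq start, an internal TSS in GENCODE, and near the start of Slc27a5. Of the F-box proteins that bind glycoproteins, Fbxo6 had a peak of 1.66 kb, Fbxo2 and Fbxo44 shared a single peak of 0.452 kb (chr4:148159558-148160009, fold 5.91), and Fbxo17 and Fbxo27 had none.

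Antiviral TRIM genes had a promoter peak at 10 of 13, against 56.8% of all protein-coding genes. Trim25, which ubiquitinates the RNA sensor RIG-I, had a peak of 3.16 kb and 27.1 kb of acetylated length. Trim56 had a peak of 1.87 kb with a fold of 19.1, and Trim26 one of 1.98 kb with a fold of 16.7. Trim21, the cytosolic antibody receptor, had a narrow peak of 0.606 kb with a fold of 10.05. The widest promoter peak of Trim14 measured 0.723 kb with a fold of 3.06, and another of its promoter peaks had a fold of 4.74. The mouse TRIM stretch on chromosome 7 holds 10 members in 289.1 kb, of which Trim5, Trim6, Trim12a, Trim12c, Trim30a, Trim30b and Trim34a had a promoter peak and Trim30c, Trim30d and Trim34b had none. Folds of the 5 named antiviral genes there were 9.19 at Trim12a, 7.91 at Trim12c, 6.32 at Trim30a, 4.64 at Trim30b and 11.8 at Trim34a. All were under the median of 13.2 for all protein-coding genes with a promoter peak. Trim12c, Trim30a and Trim30b were also under the lower quartile of 8.48, and Trim12a and Trim34a were above it. Trim5 and Trim6 of the same stretch, with folds of 5.59 and 6.64, were under that quartile as well. These genes are near copies of one another, and how reads that fit several copies were placed is not given in the sources used here, so the values of single copies are uncertain. Klhl6, a B lymphocyte gene, had a peak of 1.88 kb in the replicated list, 0.951 kb in replicate 1 and 4.95 kb in replicate 2. Promoter peaks were present at 0 of 4 macrophage markers in the replicated list, and the cell type behind the Klhl6 peak was not tested.

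A promoter peak was absent from 36 members, 24 of them TRIM genes. Of the 8 members that had no peak at all within 50 kb (5.06%, against 21.6% of all protein-coding genes), Trim42, Trim52, Trim60 and Trim61 are TRIM genes, Klhl1 and Klhl14 are KLHL genes, and Asb9 and Asb17 are ASB genes. A promoter peak was present at 4 of 8 germ cell members and 5 of 8 neuron members, both near the 56.8% of all protein-coding genes. The germ cell members without one were Trim42, Fbxo39, Fbxo43 (Emi2, which holds eggs in meiosis) and Asb17, and the neuron members without one were Trim67, Fbxo41 and Klhl1. The neuron member Trim46, which organizes the start of the axon, had a peak of 1.16 kb with a fold of 16.9, but Krtcap2 starts there too. On chromosome 17 the TRIM stretch had promoter peaks at Trim26 and Trim39 and none at Trim10, Trim15, Trim31 and Trim40. The 3 copies Trim43a, Trim43b and Trim43c on chromosome 9 had none. Trim60 and Trim61, a pair on chromosome 8, start within 1 kb of each other, and neither had a peak in its window.

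In 14 members (8.86%, against 3.55% of all protein-coding genes) the promoter peak lay only at an internal TSS. They were Trim2, Trim9, Trim28, Trim36, Trim44, Trim47, Fbxo15, Fbxo34, Klhl35, Asb3, Asb4, Asb6, Asb8 and Asb12. Of these, Trim9, a ligase of neurons, had a peak of 1.47 kb with a fold of 5.31. Fbxo15, a gene of embryonic stem cells, had its peak, with a fold of 27.4, where Timm21 starts. Internal here means inside the outermost GENCODE 5′ end of the gene. The nearest RefSeq start lay 25038 bp inside that end at Trim28, 22140 bp at Fbxo34 and 16975 bp at Trim47. It lay 6928 bp inside at Trim44, 2033 bp at Asb6 and 79858 bp at Asb12. At all of these genes the peak lay within 1 kb of the RefSeq start. The RefSeq starts of Trim2, Trim9, Klhl35, Asb4 and Asb8 had no peak within 1 kb. Counted at the 5′ end alone, 108 of the 158 members (68.4%) had a promoter peak, against 53.3% of all protein-coding genes.

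The CpG content of the 5′ end was low at 4 of the 7 muscle members and 66 of the 158 members (41.8%), against 41.6% of all protein-coding genes. It was computed as the observed over expected CpG of 250 bp before to 50 bp after the 5′ end from the genome, and a ratio under 0.4 is called low. The median ratio was 0.289 in the 7 muscle members and 0.270 in the further muscle members, against 0.506 in all members and 0.525 in all protein-coding genes. Trim55 had 0.0575, Trim54 0.145, Klhl40 0.162 and Trim63 0.289, all low, while Klhl31 had 0.429, Klhl38 0.474 and Fbxo32 0.762. Most genes with a low ratio had no peak there. Of such 5′ ends, 32 of 66 in the members (48.5%) had a peak within 1 kb, against 19.1% in all protein-coding genes. In both muscle lists together it was 14 of 17 (82.4%), the exceptions being Asb8, Asb12 and Asb16, and in the members of neither list it was 18 of 49 (36.7%). By family it was 10 of 12 in KLHL, 3 of 6 in FBXO, 15 of 38 in TRIM and 4 of 10 in ASB. At 5′ ends with a ratio of 0.4 or more the members were near the background, with 76 of 92 (82.6%) in the members, against 77.6% in all protein-coding genes. These values depend on the outermost GENCODE 5′ end. At its RefSeq start Asb12 had a peak and a ratio of 0, and Klhl31 had a ratio of 0.290. Trim28 had a ratio of 0.761 with a peak at its RefSeq start, against 0.082 without a peak at the GENCODE end. Asb5 had a peak at the GENCODE end and none at its RefSeq start.

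**Figure D4:**
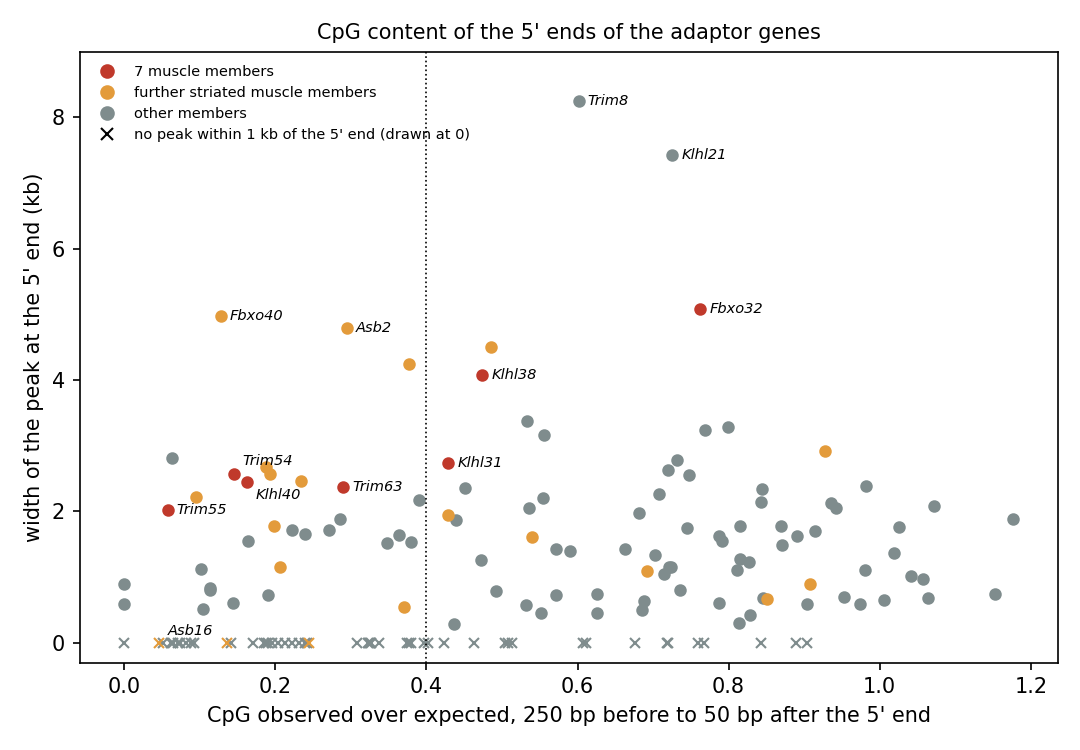
CpG observed over expected of the 5′ end (horizontal axis) and width of the peak there (kb, vertical axis) for the 158 members, with crosses at 0 for members without a peak within 1 kb of the 5′ end. Of the 7 muscle members 4 lie left of the dotted line at 0.4 and all 7 have a peak, while most crosses lie left of the line.

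The pools of hearts gave nearly the same members. A promoter peak was present in both single replicates at 121 of the 158 members, against 55.0% of all protein-coding genes. The lists differed for 3 members. Fbxo48 had a narrow peak of 0.308 kb with a fold of 2.93 in the replicated list and one in replicate 2 but not in replicate 1. Fbxo16 and Trim69 had a promoter peak in replicate 2 alone. Peaks were longer in replicate 2. Acetylated length was larger in replicate 2 than in replicate 1 for 147 of the 149 members with a value, by a median factor of 1.40, against 1.42 for all protein-coding genes, and the median width of all peaks was 930 bp in replicate 2 and 664 bp in replicate 1. The exceptions were Fbxo8 and Trim43c. The widest promoter peak was wider in replicate 2 for 116 of 121 members, by a median factor of 1.31. Whether this came from depth or from the tissue was not tested.

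**Figure D5:**
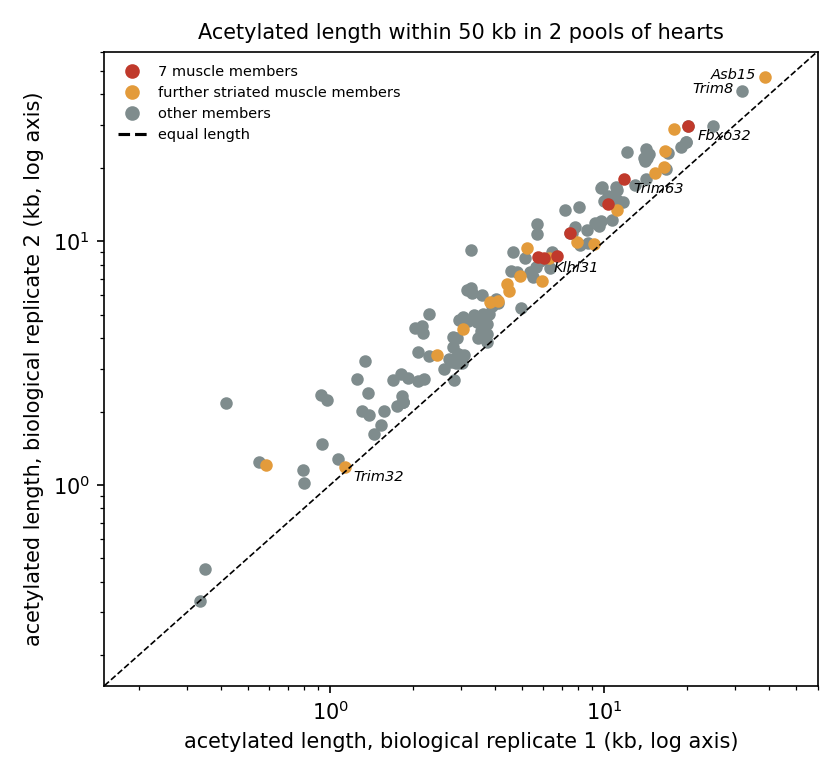
Acetylated length within 50 kb (kb, log axes) of each member in the peak lists of the 2 biological replicates, with a dashed line of equal length. Of 149 members 147 lie above the line, with a median ratio of replicate 2 to replicate 1 of 1.40, and the muscle members lie within the band of the others.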

How the data were processed

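H3K27ac was mapped in 4 libraries from 2 pools of hearts, and the authors deposited 4 peak lists: replicated peaks, pooled pseudoreplicated peaks, and pseudoreplicated peaks of biological replicates 1 and 2. Technical replicates had been joined before peak calling per the deposited text files. In each list the deposited fold is the authors' ratio per peak, taken to be enrichment over a control because of its place in the column order. The lists also hold the authors' −log10 p, −log10 q and display score, and the score was not used. Folds were used within a list to describe and filter peaks. The lists held 55831 (replicate 1), 61333 (replicate 2), 63061 (replicated) and 63494 (pooled) peaks on mm10, and 1332 replicated peaks had q above 0.05. With aligner, peak caller and read depth not given in the sources used here, the precision of single peaks is unknown. How the reads of the hybrid were placed on mm10 was not tested.

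Genes and TSSs came from GENCODE M21. Members, lists, CpG threshold and windows were chosen with earlier results of these data known, so no p-values are given and counts stand beside those of all protein-coding genes. The named genes were the muscle members, the role lists, the 4 members per family with the longest acetylated length or the widest promoter peak, up to 6 per family without any peak or with an internal peak, and members that shared a peak or differed between lists. Klhl24, Trim41, Trim43a, Trim43b, Trim43c, Fbxo8, Klhl14 and members of TRIM stretches outside these lists were named after their values were seen. Sequences came from RefSeq and the GRCm38.p6 genome, and 2000 of 2000 windows of both sources were identical. A distal peak of Klhl38 is not reported here. The RefSeq promoter table matched 126 members by symbol. Python 3.11.15, numpy 2.4.6 and matplotlib 3.10.9 were used, and the counting was tested on simulated peaks. Alternatives covered the peak list, the fold and q limits, the windows, the TSS definition and the members counted.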

Additional observations from a re-analysis of the deposited data

How the results depend on the processing

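Of 90 alternative values, 87 moved by less than the spread between replicates or, for counts, by a factor of at most 1.5. These limits are loose, so the number within them does not show how firm the results are. The lists of the 2 replicates, which set the spread, were among the alternatives. Counts close to the number of genes could not rise by that factor, and counts over fewer members were compared as they stood. The factor of 1.5 was reached by the ASB members with a promoter peak, 15 (83.3%) at any TSS and 10 (55.6%) at the 5′ end alone. At the 5′ end alone 53.3% of all protein-coding genes had one. The median acetylated length of members, 4.60 kb, was 2.24 kb with windows of 10 kb on either side of the gene and 2.30 kb without peaks within 2.5 kb of another coding gene's TSS. The median of the muscle members, 8.89 kb, was 4.49 kb with windows of 10 kb, where all protein-coding genes had a median of 1.52 kb. Between the lists of single replicates, members with a promoter peak numbered 121 to 124, TRIM members 44 to 45, FBXO members 29 to 31, KLHL members 33, ASB members 15 and muscle members 7. Median acetylated length ranged over 3.74 to 5.62 kb for members and 7.47 to 10.8 kb for muscle members, and the median promoter width of members over 1.19 to 1.75 kb. Without tandem copies 96 of 119 members (80.7%) had a promoter peak, and the matching share of all protein-coding genes was not computed. The CpG alternatives, chosen after seeing the data, left 28 of 60 members with a low ratio marked in windows of 1 kb. Under a ratio of 0.5 it was 41 of 78, and under 0.3 it was 26 of 50. Among all protein-coding genes with a low ratio the shares were 15.5%, 23.3% and 15.6% in the same order. No paired analysis was possible because the data hold 1 group of samples. Read depth is unknown, so an absent peak was not detected in these lists and may still be present below their limits.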

Other observations

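Among relatives with other names, named here after their values were seen, Fbxl22, an F-box gene of heart muscle, had a promoter peak of 5.10 kb with a fold of 22.0, the widest of the 16 FBXL genes with a promoter peak. Cish, a SOCS-box gene induced by cytokines, had one of 7.25 kb with a fold of 16.3, and Socs2, which dampens growth hormone signalling, one of 4.59 kb with a fold of 28.2. Of the 14 FBXW genes without a promoter peak, 12 had no peak within 50 kb, and all 14 lie on chromosome 9. Among the cullin-RING core genes the widest promoter peak was that of Cand2, a regulator of cullin assembly known from striated muscle, at 2.56 kb with a fold of 15.7. The narrowest was that of Dcun1d4, at 0.542 kb.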
